A study of Sus scrofa with 70 samples.

Results

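MSMB encodes beta-microseminoprotein, a small secreted protein of seminal plasma. The gene was followed through 5 reproductive glands of 12-month boars by taking every transcript assigned to it, which gave 14 of 133722 transcripts in the RNA-seq table (1 gene of 35552) and 14 of 110996 isoforms in the Iso-seq table. The study sequenced the testis, the epididymis and the 3 accessory glands (prostate, vesicular and bulbourethral) from the Banna mini-pig inbred line (BMI), which was bred from Diannan small-ear stock, and from the Diannan small-ear pig (DSE), which is not inbred. Each gland of each breed had 3 RNA-seq libraries, 30 in all, and 1 Iso-seq library, 10 in all. No group received a treatment or carried an engineered allele. The labels do not tie replicate numbers to animals, so the p-values below measure the spread between these libraries.

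Beta-microseminoprotein is a cysteine-rich protein that is made in bulk by the secretory epithelium of the prostate in many mammals and reaches the ejaculate with the other accessory gland fluids. In human seminal plasma it is one of the abundant prostate proteins, beside prostate-specific antigen and prostatic acid phosphatase, and it binds cysteine-rich secretory proteins such as CRISP3. Androgens and the forkhead and HOX factors control much of the secretory programme of that epithelium.

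The gene (ENSSSCG00000010400) lies on the minus strand of chromosome 14 in the Sscrofa11.1 build. The Ensembl transcript ENSSSCT00000011384 runs from 90533103 to 90582765 in 5 exons of 1047 bases. Its first exon of 493 bases runs from 90582765 down to 90582273 and is separated by an intron of 39909 bases from the second exon at 90542272 to 90542363. RefSeq places the gene between 90533092 and 90542309, with 509 exon bases and 110 codons, and so holds no exon at the far end. The 13 MSMB isoforms of the Iso-seq table that Ensembl does not hold all began at 90542306, which is 3 bases from the RefSeq start and 40459 bases from the Ensembl start. Of the 1047 bases of the Ensembl transcript, 550 lay upstream of that shared start and 497 lay from it on.

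The 193 bases below lie upstream of the second exon and are shown because these isoforms start just beyond them. They are the minus strand of chr14:90542364-90542556, with matches to the searched motifs in capitals.
MSMB upstream: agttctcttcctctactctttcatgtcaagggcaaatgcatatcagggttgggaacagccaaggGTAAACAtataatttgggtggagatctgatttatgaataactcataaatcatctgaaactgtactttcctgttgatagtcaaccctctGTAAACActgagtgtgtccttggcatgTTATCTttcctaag
Motifs were searched on both strands in a window of 300 bases, 250 before and 50 after the shared start, and in the same window of 19556 RefSeq promoters. The forkhead motif TGTTTAC was matched on the opposite strand at -186 and -98, and 2.65% of the promoters held at least 1 match. The GATA motif AGATAA was matched on the opposite strand at -71, and 9.17% of the promoters held it. The TATA box form TATAAA had no match, against 10.9% of the promoters. Another form, TATATAA, was searched after the sequence had been seen and matched at -30 on the strand of the gene, inside the second exon of the Ensembl model, and 2.53% of the promoters held it. A match describes letters only, and no factor binding was measured.

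A second stretch is shown because the RefSeq and Ensembl models read it differently. It is the second coding exon, the minus strand of chr14:90537655-90537750, and the capitals mark the 2 genomic bases (90537746 to 90537747) that RefSeq leaves out of the exon.
MSMB second coding exon: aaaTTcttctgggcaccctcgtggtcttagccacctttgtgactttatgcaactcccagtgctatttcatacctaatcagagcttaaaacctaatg
With these bases left out, the RefSeq start codon at 90542274 opened a frame of 110 codons. With them kept, the same start codon met a stop after 10 codons. A start codon at 90542302, which the Iso-seq models used, opened 120 codons with the bases kept and 34 with them left out. Which of the frames is translated cannot be read from RNA.

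**Figure D1:**
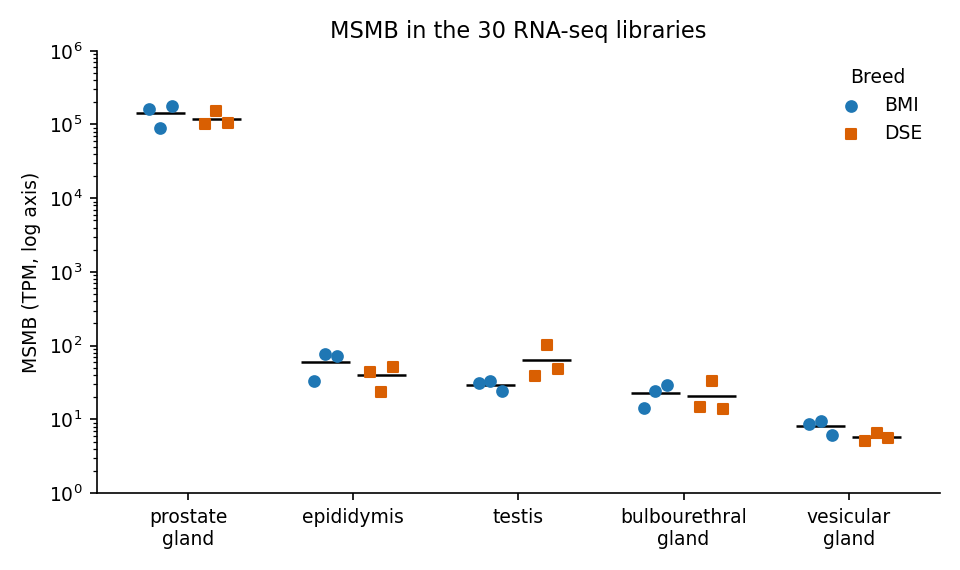
MSMB in the 30 RNA-seq libraries, in TPM on a log axis, by gland (x axis) and breed (colour and shape), with 1 point per library and a bar at each group's mean of 3. The 6 prostate gland libraries lie between 88607 and 178304 TPM, and the highest library of the other 4 glands is at 103.6 TPM.

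Before the levels are compared, 1 RNA-seq library and 1 Iso-seq library need to be set apart. For this, 11 genes were taken with a mean of at least 1000 TPM in the vesicular gland. Their mean also had to be below 50 TPM in the 5 prostate gland libraries other than BMI replicate 2. In BMI prostate gland replicate 2 they held 41.7% of all TPM. In the other 5 they held 0.00254% to 0.00789%, a share that the rule kept low. PSP-I, a spermadhesin of the vesicular gland, stood at 169569 TPM there, against 1.04 to 9.20 TPM in the other 5 and 216153 to 261758 TPM in the vesicular gland itself. The 5 spermadhesin and seminal plasma genes found of 7 listed summed to 316111 TPM there and to 2.76 to 20.6 TPM in the other 5. HOXB13, a homeobox factor of the prostate, was at 92.7 TPM there and at 263.5 to 297.4 TPM in the other 5. The part of vesicular gland RNA in the MSMB values of that library was not tested, and the main differences and counts that rest on it are given with and without it.

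In Iso-seq, the library labelled BMI prostate gland carried 10 of the same 11 genes. They held 21292 reads, or 8.09% of the library, with 10552 of them from FN1, fibronectin, against 5.36% and 7.77% in the vesicular gland libraries and 0.00714% in the DSE prostate gland library. PSP-I had 4029 reads there and 0 in the DSE prostate gland library. HOXB13 had 3 reads there and 218 in DSE, and ENSSSCG00000037112, an abundant gene of the prostate and bulbourethral glands, had 84 and 463. The part of vesicular gland RNA in the Iso-seq values of that library was not tested, and where reads of both breeds are summed below, those of DSE make up most of the prostate gland reads.

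MSMB took 13.1% ± 3.68 (SD, n = 6) of all TPM in the prostate gland. TPM is corrected for transcript length and scaled to the same total in every library, so it is a share and not an absolute amount. In the BMI prostate gland the 3 libraries held 162360, 88607 and 178304 TPM. In the DSE prostate gland they held 102927, 150343 and 106333 TPM. MSMB ranked 2 of all genes in each of the 6 libraries, from 8.86% of TPM in BMI replicate 2 to 17.8% in BMI replicate 3. Without BMI replicate 2 the mean was 14.0% ± 3.38 (SD, n = 5). With those 11 vesicular gland genes taken out of the total, BMI replicate 2 held 15.2%, which lay inside the range of the other 5.

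The gene above MSMB in the mean was ENSSSCG00000037112, a gene of chromosome 3 without a symbol, at 235802 TPM ± 80733 (SD, n = 6) in the prostate gland. It was as abundant in the bulbourethral gland, at a mean of 265810 TPM, where MSMB stood at 21.6 TPM. The ratio of MSMB to it lay between 0.359 and 1.03 in the prostate gland libraries, with 1.03 in BMI replicate 2 and at most 0.795 in the other 5, and between 4.19e-05 and 1.18e-04 in the bulbourethral gland libraries. PSP-I was the gene with the next mean, at 28266 TPM, through BMI replicate 2. ATP6, a mitochondrial subunit of ATP synthase, followed at 14377 TPM, with 37689 TPM in BMI replicate 3. The fused locus ENSSSCG00000021947_ENSSSCG00000061335 came next at 13837 TPM, again through BMI replicate 2. Without BMI replicate 2 the places after MSMB went to ATP6, to COX3, another mitochondrial gene, and to SAL1, a salivary lipocalin.

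**Figure D2:**
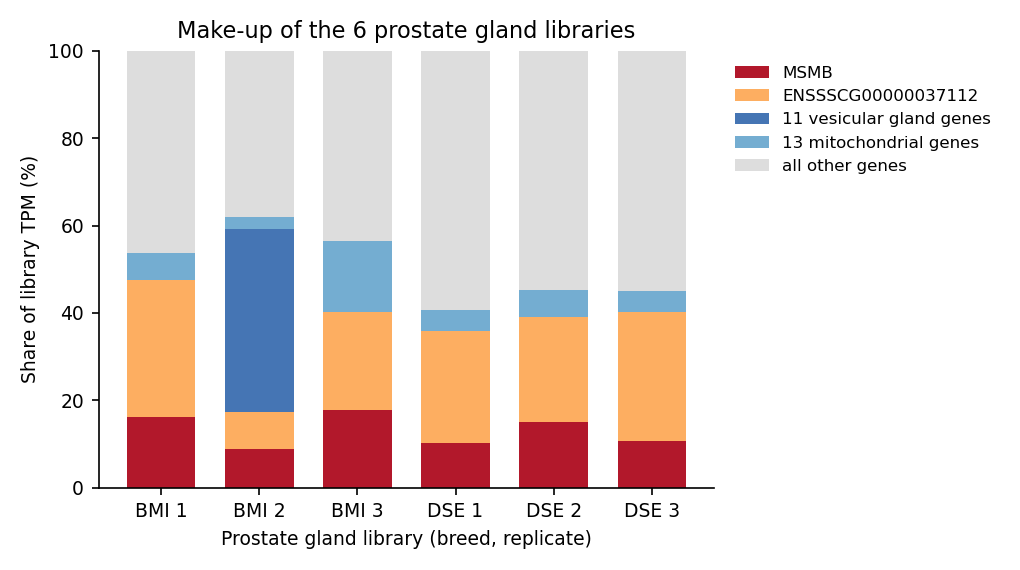
Share of library TPM (%, y axis) held by MSMB, by ENSSSCG00000037112, by 11 vesicular gland genes and by 13 mitochondrial genes in each of the 6 prostate gland libraries (x axis). The vesicular gland genes take 41.7% of BMI replicate 2 and are too small to see elsewhere, and the mitochondrial genes take 16.3% of BMI replicate 3.

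Outside the prostate gland MSMB was detected in all 24 libraries, at levels 3 to 4 orders of magnitude lower. In the epididymis it ranged from 23.4 to 78.2 TPM with a median of 48.1 and a mean of 50.4 ± 21.5 (SD, n = 6). In the testis it ranged from 24.3 to 103.6 TPM with a median of 35.9 and a mean of 46.4 ± 29.1 (SD, n = 6). The bulbourethral gland held 13.7 to 33.4 TPM, with a median of 19.4 and a mean of 21.6 ± 8.65 (SD, n = 6). The vesicular gland was lowest, with 5.13 to 9.40 TPM, a median of 6.26 and a mean of 6.89 ± 1.77 (SD, n = 6). Prostate gland libraries overlapped with no other gland, and the vesicular gland overlapped with none of the other 4 either. In DSE testis replicate 2 the level of 103.6 TPM stood above the other 5 testis libraries, whose mean was 35.0 ± 8.97 (SD, n = 5). In tissue RNA a smaller share of expressing cells and less MSMB RNA per cell cannot be told apart. The plus-strand gene LOC100522401 starts at 90582399, inside the first exon of the Ensembl transcript, and the RNA-seq kit was not stated to keep strand. The part of its reads in the MSMB values of these 24 libraries was not tested.

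As a ratio of means, the prostate gland level was 2610 times that of the epididymis, 2832 times that of the testis, 6079 times that of the bulbourethral gland and 19079 times that of the vesicular gland. These ratios without BMI replicate 2 were 2780, 3017, 6476 and 20323, in the same order. On the log2(TPM + 1) scale, fitted with limma over 19796 genes, the prostate gland was higher than the mean of the other 4 by 12.37 (SE 0.22, adjusted p = 7.61e-23), and by 12.53 without BMI replicate 2 (adjusted p = 7.69e-22). The median of all genes in that comparison was -0.28. With all 30 libraries no other gene had a smaller p in that comparison. MSMB was second there by size of the difference, after ENSSSCG00000037112 at 12.69. Without BMI replicate 2, HOXB13 had a smaller p than MSMB (limma adjusted p = 1.25e-26). A gene was called where the Benjamini-Hochberg adjusted p over all genes was below 0.05 and the log2 difference was at least 1. By that rule 16.5% of the genes were called in either direction, 3.7% higher and 12.8% lower.

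Against single glands the log2 difference was 11.39 (limma adjusted p = 2.60e-20) for the epididymis, where 21.3% of genes were called. For the testis it was 11.56 (limma adjusted p = 4.56e-21), with 48.9% of genes called. For the bulbourethral gland it was 12.54 (limma adjusted p = 7.73e-21), with 7.65% called, and here MSMB had the largest difference of all genes, followed by HOXB13 at 7.87. For the vesicular gland it was 14.00 (limma adjusted p = 5.51e-22), with 14.8% called. The SE of each was 0.28. The differences without BMI replicate 2 were 11.55, 11.72, 12.70 and 14.16, in the same order, and all were called. An exact two-sided permutation test of the shares gave p = 0.0022 for the prostate gland against each of the other 4 glands, the smallest that 6 against 6 libraries allow, and 0.00464 after adjustment over 15 comparisons.

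The other 4 glands were compared in pairs, in the order of their means. Testis and epididymis differed by -0.17 on the log2 scale (testis minus epididymis, limma adjusted p = 0.593, 95% interval -0.75 to 0.41), in a comparison where 51% of genes were called, and were not called apart. The epididymis was higher than the bulbourethral gland by 1.16 (limma adjusted p = 0.00182, with 21.4% of genes called). The testis was higher than the bulbourethral gland by 0.98 (limma adjusted p = 0.00312, with 49.1% called), just under the size required for a call, and so was not called. The bulbourethral gland was higher than the vesicular gland by 1.46 (limma adjusted p = 1.14e-04, with 27.7% called). Testis and epididymis were higher than the vesicular gland by 2.45 and 2.62, with 52.9% and 36.5% of genes called. TPM in these glands moves with the genes that dominate a library, and with size factors in place of TPM totals the step from epididymis to bulbourethral gland was 0.93 (adjusted p = 0.027) and that from bulbourethral to vesicular gland 0.68 (adjusted p = 0.116), neither of them called. Testis and epididymis were then higher than the vesicular gland by 1.64 and 1.61, in place of 2.45 and 2.62. The median of all genes between the bulbourethral and vesicular glands moved from 0.46 to 0 with that scaling.

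Between the breeds no difference in MSMB was called in any gland. In the prostate gland the mean was 143090 ± 47853 TPM (SD, n = 3) in BMI and 119867 ± 26447 TPM (SD, n = 3) in DSE, and the ranges overlapped. The log2 difference, DSE minus BMI, was -0.21 (95% interval -1.17 to 0.74, limma adjusted p = 0.733), while 0.343% of the genes tested were called. Without BMI replicate 2 it was -0.53 (95% interval -1.38 to 0.33, limma adjusted p = 0.302), and 7.06% of the genes tested were called. With size factors it was -0.67 (limma adjusted p = 0.527), and the median of all genes moved from 0.39 to -0.0056. These intervals leave room for more than a doubling in BMI. The exact permutation test of the shares gave p = 0.6, and 3 against 3 libraries cannot go below 0.1.

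In the testis the breeds did not overlap, with 24.3 to 33.0 TPM in BMI and 38.7 to 103.6 TPM in DSE. The value of 103.6 TPM was that of DSE replicate 2, and the other DSE testis libraries held 38.7 and 48.1 TPM. Over the alternatives run, libraries left out included, the limma adjusted p of the testis difference lay between 0.169 and 0.762. The log2 difference there was 0.97 (95% interval 0.10 to 1.83), with an unadjusted limma p of 0.033 and an adjusted p of 0.326, and 13.6% of all genes tested had an unadjusted p below 0.05 there. The differences in the epididymis (-0.58), vesicular gland (-0.42) and bulbourethral gland (-0.20) had adjusted limma p-values of 0.381 or more. The breed difference of the prostate gland did not differ from that of any other gland past the threshold. The largest such contrast, against the testis, was -1.18 (limma adjusted p = 0.272), or -1.49 without BMI replicate 2 (limma adjusted p = 0.184). That contrast rests in part on DSE testis replicate 2, and over the alternatives run its limma adjusted p lay between 0.143 and 0.555.

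**Figure D3:**
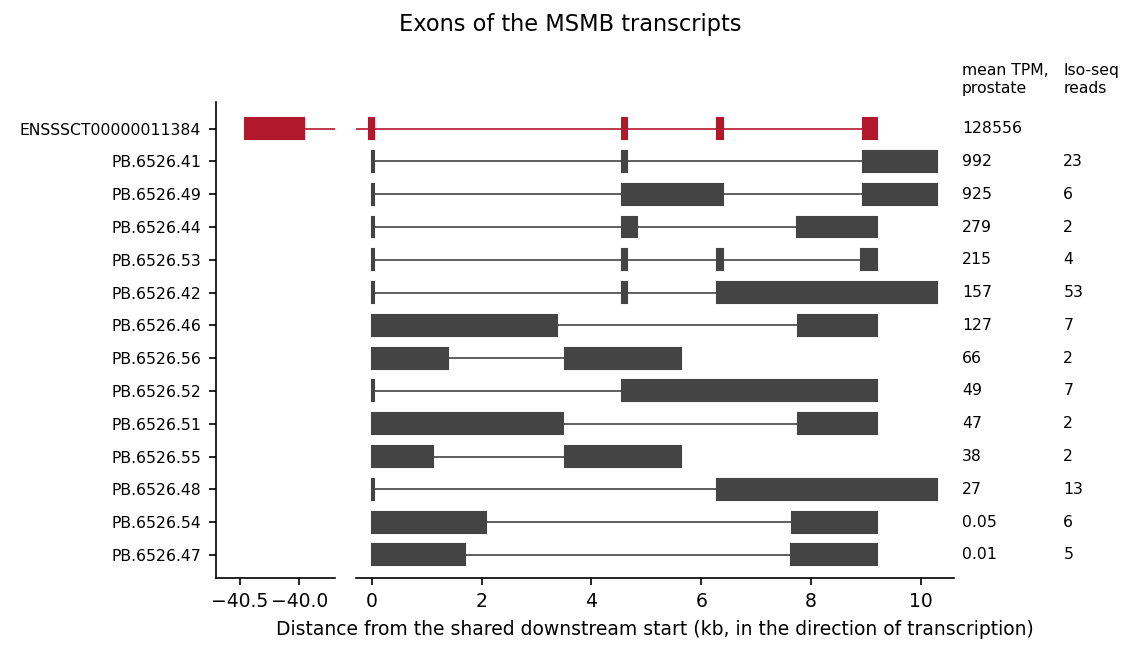
Exons (boxes) and introns (lines) of the 14 MSMB transcripts of the RNA-seq table, in kb from the shared downstream start in the direction of transcription, with the x axis broken across the first Ensembl intron. Numbers at the right give the mean TPM of 6 prostate gland libraries and the full-length Iso-seq reads of all 10 libraries; the Ensembl transcript in red has 128556 TPM, and the most abundant Iso-seq isoform has 992.

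At the transcript level, nearly all MSMB TPM was assigned to the annotated Ensembl transcript. ENSSSCT00000011384 held 97.9% ± 0.77 (SD, n = 6) of the gene's TPM in the prostate gland, from 87248 TPM in BMI replicate 2 to 171871 TPM in BMI replicate 3. In the other glands its mean share was 96.0% to 96.5%. The share differed between the breeds in the prostate gland by 0.20 percentage points (exact permutation p = 1). Short reads were assigned to transcripts by model, and reads from the shared exons fit the Ensembl transcript and several isoforms alike. In Iso-seq, 256 prostate gland reads of MSMB and fusion isoforms began at 90542306 and 4 at 90582392. TPM is corrected for transcript length, and the Ensembl transcript has 1047 bases, 550 of them upstream of 90542306. The effect of that length on the MSMB shares and on the ratios between glands was not tested.

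Among the 13 isoforms absent from Ensembl, PB.6526.41 joins the start, the second coding exon and a 3′ exon of 1359 bases. It ranged from 505.2 to 2753 TPM in the prostate gland, and the top value, in BMI replicate 3, was far above the other 5 (505.2 to 741.0). PB.6526.49, which keeps the intron after the second coding exon, held 557.8 to 1264 TPM. PB.6526.44 ranged from 0 in DSE replicates 2 and 3 to 1465 TPM in BMI replicate 3. PB.6526.53, the 521-base isoform closest to the RefSeq model, held 138.0 to 262.8 TPM. PB.6526.54 and PB.6526.47 were listed at 0 in 5 of 6 prostate gland libraries. The others, PB.6526.42, PB.6526.46, PB.6526.56, PB.6526.52, PB.6526.51, PB.6526.55 and PB.6526.48, had prostate gland means from 156.5 down to 27.2 TPM.

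Of the 14 transcripts 12 passed the filter and all 12 were called higher in the prostate gland against the other 4 glands, by 3.16 (PB.6526.48) to 12.40 (ENSSSCT00000011384) on the log2 scale, where 9.18% of all transcripts were called. All 12 were again called without BMI replicate 2, by 4.01 to 12.55. The filter let a transcript in through the prostate gland alone, so this count was bound to be high. Between the breeds none of the 12 was called by limma in the prostate gland, where 0.42% of transcripts were called. An unadjusted p below 0.05 was reached by 2 of them, against 18.9% of all transcripts tested. PB.6526.44 was lower in DSE by 5.38 on the log2 scale (limma adjusted p = 0.243) and PB.6526.51 was higher by 1.62 (limma adjusted p = 0.246). These differences without BMI replicate 2 were -6.92 and 0.99 (limma adjusted p = 0.130 and 0.243).

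PB.6526.53 is shown at the site where it departs from both annotations. It uses an acceptor 24 bases upstream of the annotated last exon, so that its longest frame held 128 codons. The 40 bases are the minus strand of chr14:90533357-90533396, and the capitals mark the AG of the alternative and of the annotated acceptor as they follow each other.
MSMB last intron end: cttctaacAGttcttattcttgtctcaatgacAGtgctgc
This isoform and the full-splice match PB.6526.43, whose frame of 120 codons opens at 90542302, were the 2 of 14 that the authors classed as coding, with 11 of 139 reads. The other 12, with 128 reads, were classed as non-coding. Among them PB.6526.41 skips the coding exon of 106 bases, and PB.6526.49 keeps the intron before it.

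Full-length reads gave a much smaller share to MSMB than TPM did. In the DSE prostate gland library 123 of 336015 full-length reads came from the 14 isoforms, or 0.0366% (exact 95% interval 0.0304% to 0.0437%). In BMI it was 11 of 263309 reads, or 0.00418% (exact 95% interval 0.00209% to 0.00747%). These intervals cover counting error only, and with 1 library per breed the difference has no replicate check. The BMI library is the one that carried the vesicular gland genes, and with those reads taken out of its total the share was 0.00455%. Those 11 genes held only 5.36% and 7.77% of the vesicular gland libraries themselves, so other vesicular gland RNA would stay in that total. The removal therefore cannot show how far such RNA bears on the MSMB share, which was not tested. The difference between the breeds lay in isoforms that Ensembl does not hold. With full and incomplete splice matches alone each library had 1 read, of PB.6526.43, a share of 0.000380% in BMI and 0.000298% in DSE. The other 8 libraries together held 5 MSMB reads, and all 5 were of PB.6526.43. In the 4 libraries with no MSMB read, the upper limit of the exact 95% interval was 0.000804% to 0.00159%.

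Transcript length was measured beside that gap. The median read length of the 10 Iso-seq libraries was 2984 to 3922 bases, and isoforms under 600 bases held 0.0440% of the reads in DSE prostate gland and 0.0942% in BMI. MSMB has 509 exon bases in RefSeq, whereas the read-weighted median length of its Iso-seq isoforms was 4143 bases, and only PB.6526.53, with 4 reads, was under 600. The ratio of read share to TPM share was also taken for other abundant genes. The 78 genes with at least 1000 TPM in the DSE prostate gland held 59.7% of TPM and 0.533% of the reads, 22 of them had no read, and 42 had a lower ratio than MSMB, whose ratio was 0.00305 against a median of 0.00264. In BMI, by the mean of replicates 1 and 3, 68 such genes held 65.9% of TPM and 0.619% of the reads, and the 16 genes with a lower ratio than MSMB equalled in number the 16 without a read. The ratio of MSMB there was 0.000245, below the median of 0.00715. The reads were those of the BMI Iso-seq library, where the 11 vesicular gland genes held 8.09%. In the TPM of replicates 1 and 3 they held 0.00654% and 0.00254%, so this ratio sets unlike mixtures of RNA side by side. With replicate 2 in the BMI mean, 75 genes had at least 1000 TPM, with 67.1% of TPM and 4.61% of the reads. Of them 16 again had a lower ratio than MSMB, and PSP-I alone held 1.53% of the reads. The role of length in the gap was not tested.

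The 3′ ends of the isoforms fell into 2 main kinds, and the 20 genomic bases after each are shown because they differ in A content. The first follows the end at 90532004, used by PB.6526.41, PB.6526.42, PB.6526.48 and PB.6526.49, and lies at chr14:90531984-90532003 on the minus strand. The other follows the end at 90533103, used by the Ensembl transcript and PB.6526.53 among others, and lies at chr14:90533083-90533102 on the minus strand.
after the far 3′ end: aaaaaaaaaaaaaaaaaaaa
after the annotated 3′ end: aaacacttgaatatgtctgt
Isoforms with at least 60% A in these 20 bases numbered 7 of 14 and held 106 of 139 reads. A polyadenylation motif near the end was listed for 9 isoforms with 37 reads. Whether the reads at the far end were primed from the genomic A run was not tested.

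**Figure D4:**
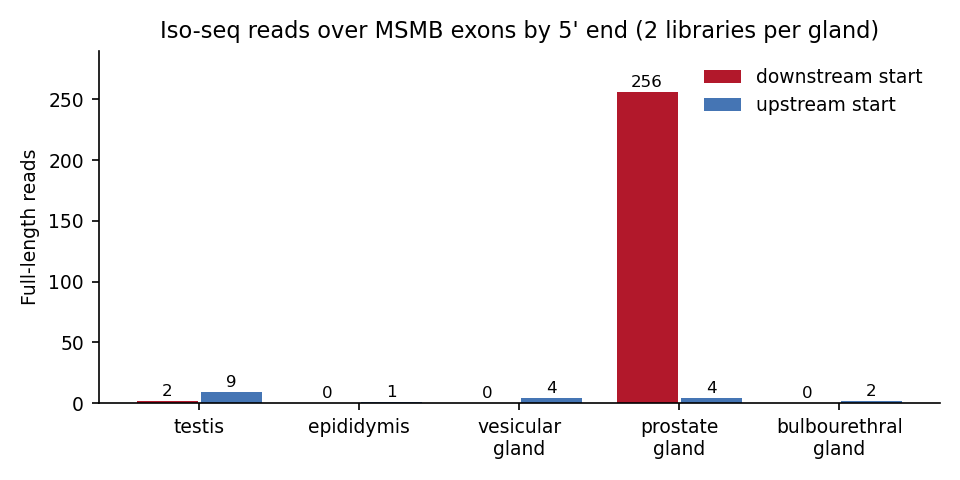
Full-length Iso-seq reads (y axis) over MSMB exons, MSMB and fusion isoforms together, by gland (x axis, 2 libraries each) and by 5′ end (colour). The downstream start has 256 reads in the prostate gland and 2 elsewhere, and the upstream start has 4 in the prostate gland and 16 elsewhere.

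A further 12 isoforms were fusions that run from MSMB through ENSSSCG00000039871 into NCOA4, the ferritinophagy receptor gene next to it. They held another 139 reads, of which 123 were from the DSE prostate gland, 3 from the BMI prostate gland and 13 from other glands. In RNA-seq the 12 fusion transcripts summed to 14.8 to 44.4 TPM in the prostate gland, a mean of 0.0265% of the MSMB level there. In the other glands they summed to 0.314 to 9.18 TPM, on average 5.21% to 10.1% of the MSMB level. Another 2 isoforms lay antisense to MSMB, with 10 reads, all from the DSE prostate gland. The RNA-seq kit was not stated to keep strand, so sense, antisense and fusion reads over shared exons cannot be told apart there.

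MSMB and fusion isoforms used the same pair of 5′ ends. The downstream start at 90542306 was used by 21 isoforms with 258 reads, of which 244 were from the DSE prostate gland, 12 from the BMI prostate gland and 1 from each testis library. The upstream start at 90582392 was used by 5 isoforms with 20 reads, 9 of them from the testis, 4 from the vesicular gland, 4 from the prostate gland, 2 from the bulbourethral gland and 1 from the epididymis. The upstream start lies 7 bases from the start of LOC100522401, a gene on the plus strand that RefSeq names WASH complex subunit 2A. With so few reads per library the shares outside the prostate gland were not compared further.

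Identity of the tissue was checked against marker genes in the comparison of the prostate gland with the mean of the other 4, where 3.7% of all genes were called higher and 12.8% lower, or 4.43% and 13.8% without BMI replicate 2. Of the markers, 5 of 6 luminal and general epithelial markers were called higher and none lower, and the 3 basal markers found were all called lower. All 10 testis markers were lower, as were 3 of 6 epididymis markers. Of the 5 vesicular gland markers none was called with all 6 libraries (1 at an unadjusted p below 0.05, against 55.5% of all genes), and all 5 were called lower without BMI replicate 2. Bulbourethral mucous markers (1 of 2 tested higher), urothelium (1 of 4 lower), neuroendocrine (0 of 3), smooth muscle (1 of 5 higher), skeletal muscle (0 of 4), fibroblast (0 of 5), endothelium (0 of 3) and leucocyte markers (1 of 4 lower) gave few calls. When BMI replicate 2 was left out, GPX5 of the epididymis list, UPK2 of the urothelium and CD68 of the leucocytes were also called lower, GALNT12 of the mucous list and PECAM1 of the endothelium were called higher, and CNN1 of smooth muscle was no longer called. The counts of the luminal, basal and testis lists stayed at 5, 3 and 10. The summed luminal and epithelial level of the prostate gland, 1338 to 2631 TPM, overlapped that of the bulbourethral gland, 2363 to 2793 TPM, where MSMB was low.

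Of 22 listed genes of the prostate secretory programme 12 were found and 9 tested, and 1 was called higher and 3 lower, where 3.7% of all genes were called higher and 12.8% lower, with a median log2 difference of -0.72 against -0.28 over all genes. AGR2, a protein disulfide isomerase of mucous and secretory epithelium, was the 1 that was higher, by 2.46 (limma adjusted p = 8.01e-04), although its mean was 801.4 TPM in the prostate gland and 12397 TPM in the bulbourethral gland. Called lower were CPE, a carboxypeptidase, at 14.0 TPM, WFDC2, a whey acidic protein family member, at 11.2 TPM, and TFF3, a trefoil peptide, at 6.56 TPM. Their highest means were 558.4 TPM (CPE, epididymis), 311.0 TPM (WFDC2, bulbourethral gland) and 10738 TPM (TFF3, bulbourethral gland). Without BMI replicate 2 the calls were 1 higher and 2 lower, and TFF3 was the gene lost. ACP3, prostatic acid phosphatase, stood at 5.08 TPM in the prostate gland and was not called. The listed genes TGM4, KLK2, KLK3, KLK11, AZGP1, PIP, SEMG1, SEMG2, FOLH1 and PATE4 were not matched by symbol and were not used here.

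Of the relatives and binding partners of beta-microseminoprotein all 7 listed were found and tested. In the prostate gland 2 were called higher and 2 lower, with a median of -0.26, against 3.7% and 12.8% of all genes. CRISP3, the cysteine-rich secretory protein that binds beta-microseminoprotein in human seminal plasma, was higher in the prostate gland by 1.91 (SE 0.35), or by 2.64 without BMI replicate 2, with 4.67 to 148.8 TPM there and a mean of 791.8 TPM in the bulbourethral gland. PI16, of the same CAP superfamily, was higher by 1.94 (SE 0.66, limma adjusted p = 0.018) and was no longer called without BMI replicate 2. Its mean was 61.2 TPM in the prostate gland and 67.3 TPM in the epididymis. CRISP1 and CRISP2 were lower, with means of 1595 TPM in the epididymis and 1774 TPM in the testis, and CRISP1 was listed at 0 in 5 of 6 prostate gland libraries. RPSA, the laminin receptor precursor that has been described as a binding partner, was not called, with means from 665.4 TPM in the prostate gland to 1184 TPM in the epididymis. MSMP, the closest paralogue by name, stayed below 1 TPM in every gland mean.

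Transcription factors of the androgen axis and of prostate identity were mostly higher in the prostate gland. Of 16 genes, all tested, 11 were called higher and 2 lower, against 3.7% and 12.8% of all genes, with a median log2 difference of 1.87 against -0.28 over all genes. Without BMI replicate 2 the count was 10 higher and 2 lower, and GATA2 was the gene lost. HOXB13 had 92.7 TPM in BMI replicate 2 and 263.5 to 297.4 TPM in the other 5 prostate gland libraries, against at most 0.215 TPM in any library of the other glands. Its log2 difference was 7.85 (SE 0.15, limma adjusted p = 9.41e-23), and 8.11 without BMI replicate 2.

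Several factors that were higher in the prostate gland were as high or higher in the bulbourethral gland, where MSMB was low. SPDEF, an ETS factor, had means of 299.1 and 650.9 TPM in prostate and bulbourethral gland, and CREB3L4, a secretory pathway factor, 114.4 and 175.8 TPM. The forkhead factors FOXA1 (33.9 and 88.1 TPM) and FOXA2 (22.9 and 43.6 TPM) lay in the same order. So did HOXD13 (48.9 and 68.9 TPM), SOX9 (77.2 and 89.8 TPM) and the ETS factors EHF (181.0 and 224.1 TPM) and ELF3 (23.9 and 33.1 TPM). HOXA13 had 24.8 and 21.9 TPM. GATA2 had a mean of 75.8 TPM in the prostate gland, with 219.6 TPM in BMI replicate 2 and 36.2 TPM in the lowest library, and a mean of 304.6 TPM in the vesicular gland. The steroid reductase SRD5A1 was lower in the prostate gland by 1.22 on the log2 scale and the histone methyltransferase EZH2 by 1.29, both with their highest mean in the testis (435.7 and 86.0 TPM). SRD5A2, the other reductase, was highest in the epididymis at 129.1 TPM and was not called. Of 25 genes of these 3 lists tested between the breeds in the prostate gland none was called by limma, against 0.343% of all genes, and 6 had an unadjusted p below 0.05, against 33.5% of all genes tested. With BMI replicate 2 left out, 3 of the 25 were called, against 7.06% of all genes. The log2 difference of CRISP3, DSE minus BMI, was then -3.36 (limma adjusted p = 0.00397), with 88.0 and 148.8 TPM in the 2 remaining BMI libraries, 4.67 TPM in BMI replicate 2 and 8.51 to 12.8 TPM in DSE. AGR2 was higher in DSE by 3.74 (limma adjusted p = 0.0290) and CPE by 1.97 (limma adjusted p = 0.0352).

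**Figure D5:**
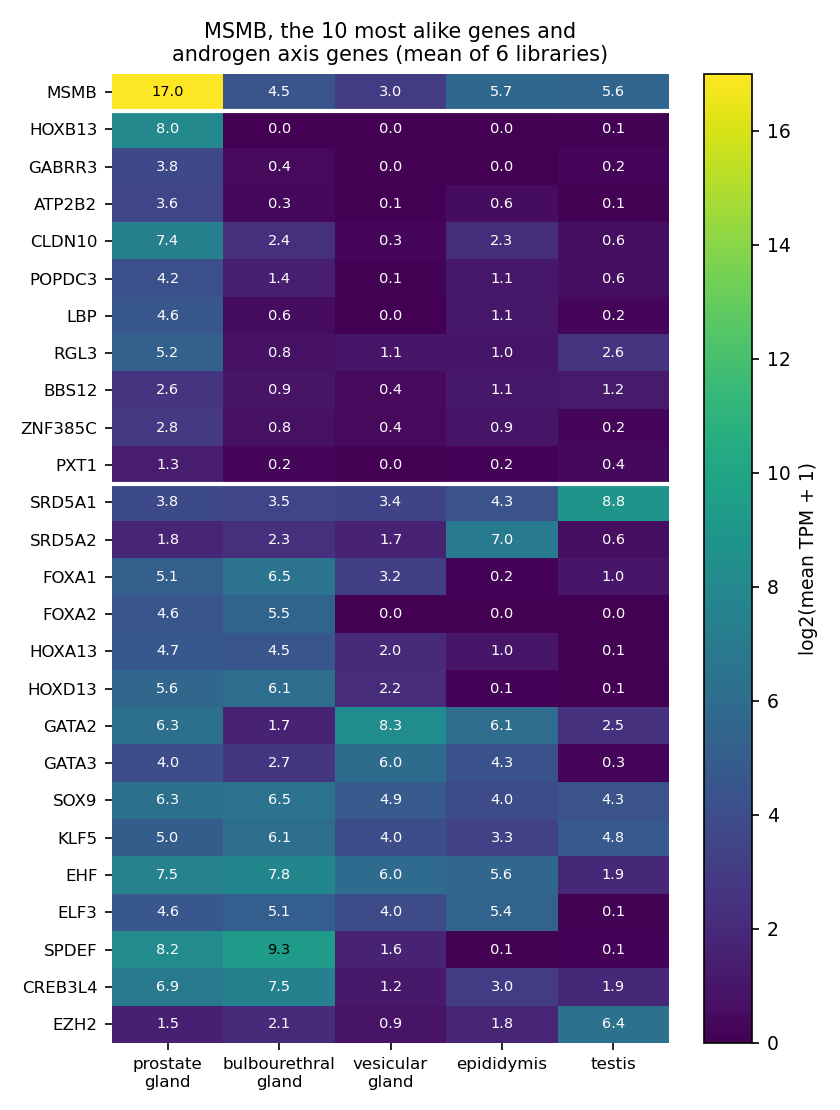
Mean level of 6 libraries per gland, as log2(mean TPM + 1), for MSMB, the 10 genes with a symbol whose pattern was most like it, and the androgen axis genes, with glands in columns and the value in each cell. HOXB13 shows 8.0 in the prostate gland and at most 0.1 elsewhere, and SPDEF is higher in the bulbourethral gland than in the prostate gland.

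The genes most like MSMB were ranked by Pearson's r of log2(TPM + 1) over the 30 libraries, which share glands and the TPM scale, so the r values are given as descriptions. HOXB13 came first at 0.98, followed by GABRR3, a GABA receptor subunit, at 0.96, and ATP2B2, a plasma membrane calcium pump, at 0.95. CLDN10, a claudin of tight junctions, had r = 0.94 and a mean of 170.7 TPM in the prostate gland. POPDC3 (0.90), LBP (0.90), the lipopolysaccharide binding protein, RGL3 (0.88), BBS12 (0.87), ZNF385C (0.85) and PXT1 (0.85) completed the 10. Their prostate gland means ran from 1.41 TPM (PXT1) to 250 TPM (HOXB13), far below the 131479 TPM of MSMB. A further 12 genes without a symbol had an r above that of PXT1. Without BMI replicate 2, 9 of the 10 remained, whereas none was among the 10 by Spearman's rho or within the prostate gland libraries alone.

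The levels of genes beside MSMB on chromosome 14 were also compared. RefSeq lists 15 other protein-coding genes within 500 kb, of which 6 were matched and 5 tested. None was called by limma between the prostate gland and the mean of the other 4, where 16.5% of all genes were called in either direction, with a median log2 difference of -0.11 and a range of -0.40 to 0.46, and 2 (OGDHL and PARG) had p below 0.05 before and after adjustment with differences under the size limit, where 55.5% of all genes had an unadjusted p below 0.05. NCOA4, at a distance of 1.8 kb, was at 43.5 TPM in the prostate gland, 74.2 TPM in the testis and 14.3 TPM in the vesicular gland.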

How the data were processed

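RNA-seq was deposited as TPM, computed by the authors with Salmon 1.9.0 after alignment with STAR 2.7.10a to Sscrofa11.1 (susScr11) and Ensembl annotation merged with their Iso-seq isoforms, as the submitters' processing notes and the methods name them. For Iso-seq the authors deposited a count of full-length reads per isoform in every library, clustered over all samples, with the percent of A after each 3′ end, as the authors' SQANTI3 run gave it. The methods name poly-T selection and the labels rRNA depletion for RNA-seq. Small RNA files were not used. The study lists reads per RNA-seq library, but the TPM tables hold no counts, so TPM have no counting interval. Iso-seq totals were 231413 to 458697 reads.

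TPM of a gene's transcripts were summed. Genes that reached 1 TPM in 3 or more libraries (19796) were fitted as log2(TPM + 1) in limma 3.58.1 (R 4.3.3), so low genes' changes are understated. Gland contrasts used all 30 libraries and breed contrasts 6. Calls needed an adjusted p below 0.05 and a log2 difference of at least 1. Shares were compared by exact permutation. Read shares have Clopper-Pearson intervals. Sequences were read from the RefSeq genome of the same build with pysam 0.24.0. The members, lists and named genes (the 5 highest prostate gland genes, the 10 most alike, and list members that were called or above 100 TPM in a gland mean; 2 list members are not reported here, and ACP3, MSMP and markers whose call changed were named after their values were seen) were chosen with earlier results of these data known. On simulated data the gland contrast recovered 98.5% and the breed contrast 46.5% of 200 genes changed by a log2 of 2 among 19796. The simulation drew independent normal noise with 1 SD per gene over all groups and changed only genes with a mean log2 level above 2. The prostate gland breed contrast has its own spread, so 46.5% does not give its power as run. In 2 of 20 pairs of groups of the same breed did all same-numbered libraries deviate together (r over 0.1), so numbers were not taken as pairs. Alternatives were another pseudocount, filter, scaling, variance trend, replicate block and libraries left out. Added after seeing the data were the share without vesicular gland genes, list counts without BMI prostate gland replicate 2, the testis mean without DSE replicate 2, BMI TPM set against reads with BMI replicate 2, and list counts between breeds without it.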

Additional observations from a re-analysis of the deposited data

Results flagged for a closer look

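In 16 of 60 groups of 6 libraries, 1 library lay farther from the rest than Dixon's 95% critical value allows. Chance alone flags about 1 in 20 groups of normal values, which TPM of both breeds need not be. For PB.6526.47, PB.6526.54 and CRISP1, at 0 in 5 of 6 libraries, the flag was bound to come. PSP-I and the fused locus were tested because BMI prostate gland replicate 2 raised their means. The count of 16 can therefore not be set against that rate. BMI prostate gland replicate 2 accounted for 7 of the 16 and BMI prostate gland replicate 3 for 7, so the values are not independent.

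For MSMB itself the testis level of DSE replicate 2, 103.6 TPM, was the only one that stood apart at the gene level. Among the transcripts BMI prostate gland replicate 3 was highest for PB.6526.41 (2753 TPM), PB.6526.44 (1465 TPM), PB.6526.48 (121.4 TPM) and PB.6526.47 (0.0804 TPM), and its share of MSMB TPM in the Ensembl transcript was lowest, at 96.4%. The mitochondrial genes held 16.3% of TPM in that library, and ATP6 stood at 37689 TPM and RGL3 at 81.6 TPM. Their part in the transcript values was not tested. DSE prostate gland replicate 3 was the only library above 0 for PB.6526.54, at 0.283 TPM.

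BMI prostate gland replicate 2 was highest for PSP-I (169569 TPM), for ENSSSCG00000021947_ENSSSCG00000061335 (83013 TPM), for GATA2 (219.6 TPM) and for CRISP1 (0.0457 TPM). It was lowest for PB.6526.56 (13.1 TPM), HOXB13 (92.7 TPM) and FOXA2 (12.5 TPM).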

How the results depend on the processing

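The difference of MSMB between the prostate gland and each other gland kept its direction and its call under every alternative run. The log2 difference from the mean of the other 4 ran from 12.28 to 12.53 with 1 library left out. Of 196 alternative values, libraries left out aside, 174 kept their direction, call or size. Causes of the changes below were not tested.

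With size factors, testis minus epididymis turned to 0.025, epididymis minus bulbourethral gland (0.93) and bulbourethral minus vesicular gland (0.68) lost their call, DSE minus BMI in the vesicular gland turned to 0.048, and the contrast of breed differences between prostate gland and epididymis turned to -0.072 and to vesicular gland to -0.71. That scaling moved the median of all genes by -0.69 in epididymis minus vesicular gland and by -0.39 in the prostate gland breed contrast. With a pseudocount of 0.1, testis minus bulbourethral gland passed the size limit at 1.02, genes called between the prostate gland and the other 4 rose from 3270 to 5932 and transcripts from 5935 to 14664, transcripts called between breeds fell from 120 to 35, and PB.6526.48 turned to 0.43 between breeds.

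Genes called between breeds in the prostate gland numbered 46, 19 with pseudocount 0.1, 8 without a filter, 23 with size factors and 118 in a fit of all 30 libraries. In the fit with the replicate block 0 were called, and the block changed no call of MSMB. The replicate numbers are shared only as numbers (r -0.30 to 0.39). With 1 library left out the count ran from 0 to 934, and for transcripts from 0 to 393, with 934 and 393 reached without BMI replicate 2.

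The share of MSMB was 19.3% of a total without the 10 highest transcripts and 12.2% to 14.0% with 1 library left out, and the Ensembl transcript's share 97.7% to 98.2%. With full and incomplete splice matches alone the read shares were 0.000380% in BMI and 0.000298% in DSE, 1 read each. Of the 10 most alike genes 0 were shared with Spearman's rho and 0 within the prostate gland.

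With 1 library left out, testis minus bulbourethral gland ran from 0.78 to 1.18 and was called in 6 of 30 fits. Breed contrasts that were not called turned in sign in the bulbourethral gland (-0.60 to 0.021), in the contrast of prostate with vesicular gland (-0.10 to 0.40) and with bulbourethral gland (-0.33 to 0.38), and for PB.6526.41 (-0.75 to 0.48), PB.6526.48 (-2.04 to 1.43), PB.6526.42 (-0.15 to 0.89), PB.6526.49 (-0.54 to 0.050) and PB.6526.53 (-0.22 to 0.24). Precision is limited by 3 libraries per group and, in Iso-seq, by 11 MSMB reads in BMI.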
